A study of Mus musculus with 2 samples.

Results

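The cells described here are mouse islet cells that carried the messenger RNA of both somatostatin (Sst) and pancreatic polypeptide (Ppy). A cell was included when Sst and Ppy each made up at least 1% of its unique molecular identifiers (UMIs, one per captured transcript), while the insulin genes (Ins1 and Ins2 summed) and glucagon (Gcg) each stayed below 1%. Of 1483 cells, 148 met the rule. They were compared with 58 cells that had Sst only and 122 cells that had Ppy only at the same threshold.

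The cells came from pancreatic islets of C57BL/6J mice aged 8 weeks, and both samples are labelled as control islets. The labels name no transgene or treatment. The islets were hand-picked after collagenase digestion and dissociated, and the cells were processed by RevGel-seq, in which each cell is coupled to a barcoded bead and lysed within a reversible gel. The 2 libraries are technical replicates of 1 islet preparation, so every p-value below measures the spread between libraries and not between animals. Library 1 held 735 cells and 15931154 UMIs, library 2 held 748 cells and 17440292 UMIs, and the libraries shared 0 barcodes.

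Somatostatin is secreted by delta cells and acts locally to restrain the release of insulin and glucagon. Pancreatic polypeptide is secreted by gamma cells, also called PP cells, and belongs to the neuropeptide Y family together with peptide YY (Pyy). Delta cells depend on the homeobox factor Hhex. Adult islet cells are usually described by a single main hormone, although cells with the messages of several hormones are known from the developing and the adult islet.

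The windows upstream of the 2 genes that define the cells are shown because the messages of both genes were found in the same cells. In the mouse genome build GRCm38.p6, with start sites and sequence from RefSeq, the 250 bases before the Sst start lie at chr16:23890845-23891094 on the minus strand and those before the Ppy start at chr11:102101320-102101569 on the minus strand. The gene annotation places the Sst gene at chr16:23889573-23890958, so its 5′ end reaches into the Sst window, and the Ppy gene at chr11:102099930-102101319. Capitals mark the full cAMP response element TGACGTCA in the Sst window and the TATA box TATAAA in the Ppy window.
Sst: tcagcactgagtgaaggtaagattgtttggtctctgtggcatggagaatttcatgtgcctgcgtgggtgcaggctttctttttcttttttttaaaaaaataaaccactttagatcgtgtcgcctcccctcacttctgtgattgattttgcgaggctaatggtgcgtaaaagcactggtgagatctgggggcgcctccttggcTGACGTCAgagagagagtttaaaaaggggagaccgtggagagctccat
Ppy: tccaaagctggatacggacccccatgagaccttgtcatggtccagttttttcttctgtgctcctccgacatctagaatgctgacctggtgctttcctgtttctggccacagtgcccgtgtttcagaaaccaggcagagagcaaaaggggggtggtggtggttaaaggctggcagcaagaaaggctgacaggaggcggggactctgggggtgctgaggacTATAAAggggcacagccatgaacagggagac
Searched on both strands, TGACGTCA began 48 bases before the Sst start and occurred in 1.55% of 32851 RefSeq promoter windows, each cut to the same 250 bases before the start. TATAAA began 31 bases before the Ppy start and occurred in 12.4% of these windows. The homeodomain core TAATTA, present in 4.84% of windows, was found in neither. Such matches describe letters and not factor binding. Pyy, the closest relative of Ppy in these data, lies 5356 bases away from Ppy on the same strand of chromosome 11.

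Cells with both hormones made up 10.5% of library 1 (77 of 735 cells, exact 95% binomial interval 8.36% to 12.9%) and 9.49% of library 2 (71 of 748 cells, 7.49% to 11.8%), a mean of 9.98% ± 0.696 (SD, n = 2). These intervals cover counting error only. Sst cells and Ppy cells here mean cells with at least 1% of that hormone and with insulin and Gcg each below 1%. Among the 206 Sst cells, 148 also passed the Ppy threshold, which was 68.75% in library 1 and 75.5% in library 2. Among the 270 Ppy cells, 148 also passed the Sst threshold, a mean of 54.9% ± 5.44 (SD, n = 2). With no limit on insulin and Gcg, 177 cells passed both thresholds. The shares among all cells with Sst or with Ppy were not read. At this threshold cells with both hormones outnumbered cells with Sst only in each library, at 77 against 35 and 71 against 23. At a threshold of 2% the order turned in library 1, with 46 against 64 cells, and held in library 2, with 54 against 39. Because the rule chose the cells on these values, the shares are given without a test.

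Free RNA can place hormone UMIs in cells that do not make the hormone, so the same shares were read in 149 non-endocrine cells. None of them reached 1% Ppy or 1% Sst (0 of 149 cells, which allows a share of up to 2.01%). The highest Ppy share in these cells was 0.373% and the highest Sst share 0.706%, at a median depth of 12971 UMIs against 13585 in the cells with both hormones. The Ppy threshold of the rule lies above the highest non-endocrine Ppy share, so the cells with both hormones exceed that share by choice. Of the 58 Sst only cells, 33 lay at or below the 0.373%, and the other 25 had Ppy shares of 0.420% to 0.861%. Scrublet, which scores cells for resemblance to simulated doublets, called 16 of the 1483 cells, of which 2 were cells with both hormones, 0 were Sst only cells and 0 were Ppy only cells.

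**Figure D1:**
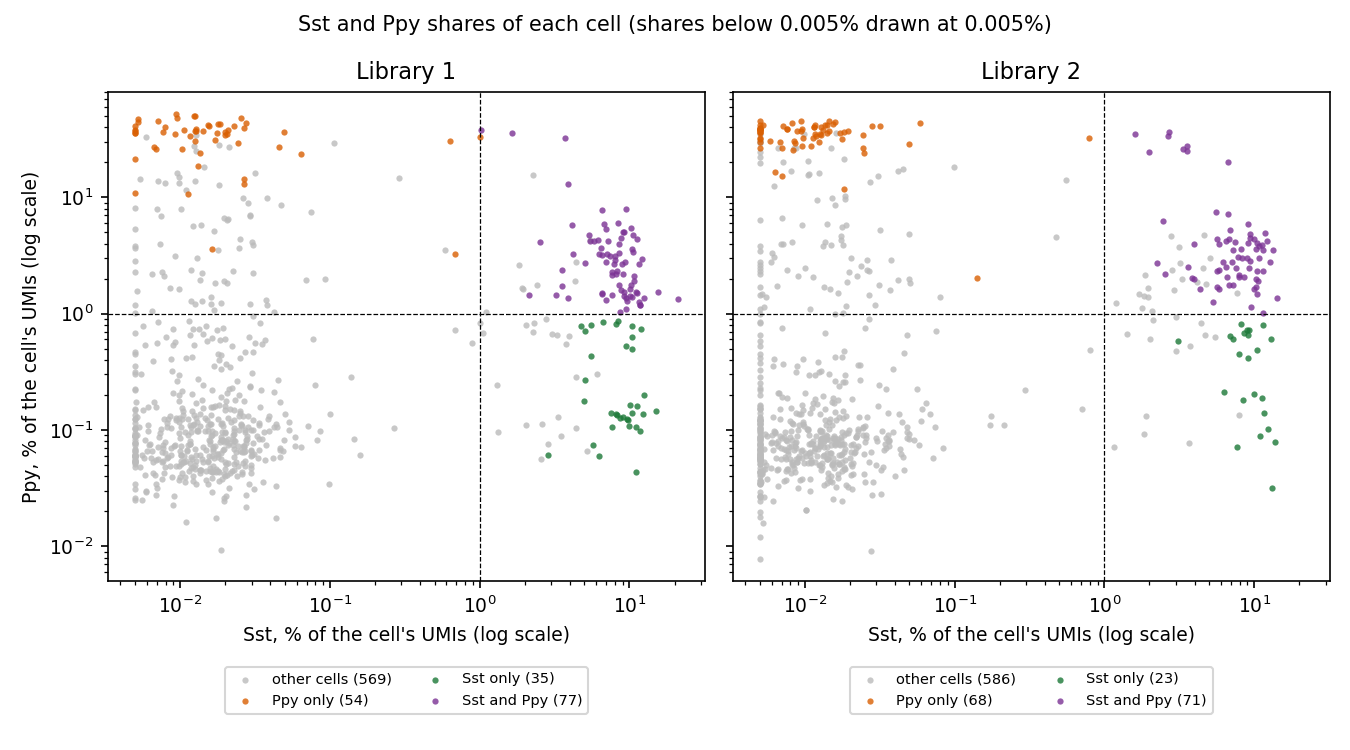
Sst share (horizontal, % of UMIs, log scale) against Ppy share (vertical, % of UMIs, log scale) of every cell in library 1 and library 2, with dashed lines at 1%. Purple points are the 77 and 71 cells with both hormones, green points the Sst only cells, orange points the Ppy only cells and grey points all others. Grey points beyond both lines have insulin or Gcg of at least 1%. Most purple points form a group at high Sst, and a few lie at the Ppy level of the orange points.

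The Ppy share of the 206 Sst cells spread over more than 1 range. It was below 0.3% in 33 cells, between 0.3% and 1% in 25, between 1% and 2% in 44, between 2% and 4% in 58, between 4% and 10% in 34, and at least 10% in 12. No cell lay between 7.86% and 12.9%. The 12 cells with the highest Ppy comprised 4 cells of library 1 and 8 of library 2, and 11 of them lay between 20.03% and 37.5%. The threshold of 1% ran through a continuous range, since the 5 cells just inside it had 1.02%, 1.04%, 1.11%, 1.14% and 1.18% Ppy and the 5 just outside had 0.861%, 0.844%, 0.811%, 0.810% and 0.804%.

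For Sst, the cells just inside the threshold had 1.02%, 1.59%, 1.65%, 2.00% and 2.13%, and the Ppy cells just outside had 0.998%, 0.788%, 0.689%, 0.633% and 0.141%. Sst was the more abundant of the pair in most cells with both hormones, namely in 70 of 77 cells of library 1 and 58 of 71 of library 2. Their median Sst share was 7.95% and their median Ppy share 2.79%. Sst only cells had a median Sst share of 9.09%, and Ppy only cells a median Ppy share of 36.4%. The median Ppy share of the cells with both hormones was thus far below that of Ppy only cells, while their median Sst share was near that of Sst only cells.

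**Figure D2:**
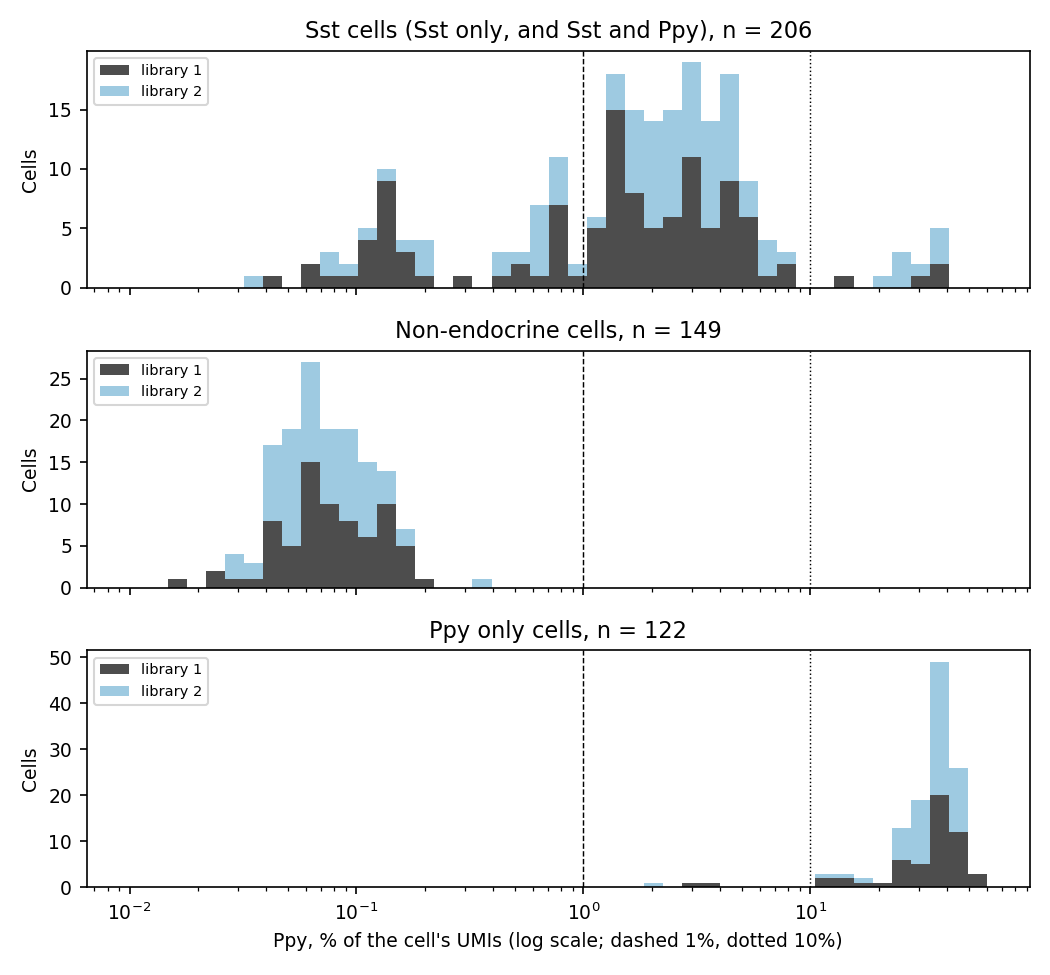
Number of cells (vertical) by Ppy share (horizontal, % of UMIs, log scale) in 206 Sst cells, 149 non-endocrine cells and 122 Ppy only cells. The Sst cells had insulin and Gcg each below 1%. The libraries are stacked, with the dashed line at 1% and the dotted line at 10%. The 12 Sst cells right of the dotted line sit in the range of the Ppy only cells, and every non-endocrine cell lies at or below 0.373%.

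The gap in the Ppy share was used to describe the cells with both hormones as 136 cells with Ppy under 10% and 12 cells with Ppy of at least 10%, a division chosen after these values were seen. The 136 cells had a median of 8.34% Sst, 2.70% Ppy and 13421 UMIs. The 12 cells had a median of 3.03% Sst (range 1.02% to 6.69%), 30.0% Ppy and 38361 UMIs (range 14026 to 64485). Median depth was 13260 UMIs in Sst only cells and 29746 in Ppy only cells. The median Scrublet score was 0.114 in the 12 cells and 0.0215 in the 136 cells, and Scrublet called 1 cell of each set a doublet. Whether any of the 12 barcodes held a pair of cells was not tested. Within the 136 cells, the Spearman correlation across cells of the Sst share with the Ppy share was −0.292 in library 1 (73 cells) and 0.0112 in library 2 (63 cells). These shares come from the same cells and the same total, so they are not independent.

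The number of genes detected per cell was compared at an equal depth of 4000 UMIs drawn from each cell. The median was 2138 ± 7.78 genes in cells with both hormones, 2166 ± 2.12 in Sst only cells and 1638 ± 17.7 in Ppy only cells (mean of library medians ± SD, n = 2). Without thinning the medians were 4660, 4471 and 5803 genes. When the 5 hormone genes were removed before thinning, the values were 2344 ± 20.5, 2315 ± 2.12 and 2275 ± 21.2. The lower value of Ppy only cells was thus mostly absent once the hormone transcripts were left out. With 2 libraries in each class no permutation test can reach p = 0.05.

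To compare the rest of the transcriptome, the UMIs of each class were summed within each library and 11716 genes were tested, without the 5 hormone genes used by the rule. Levels are given as CPM (counts scaled to a total of 1e+06 non-hormone UMIs), and differences as log2 fold changes ± SE. Tests used edgeR's quasi-likelihood test with Benjamini-Hochberg adjustment. The SE was calculated as the absolute log2 fold change divided by the square root of that test's F statistic.

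Few genes separated cells with both hormones from Sst only cells. Of the 11716 genes, 4 passed an adjusted p of 0.05 in edgeR (0.0341%), of which 3 were higher, Ccn1 and Atf3 among them, and 1 was lower (Dlk1) in cells with both hormones. At an unadjusted p under 0.05 there were 753 genes, and DESeq2 called 3. With the library as a block, edgeR called 11 genes, 9 higher and 2 lower. Leaving out library 1 or library 2 of the Sst only cells gave 18 and 19 calls, leaving out library 1 of the cells with both hormones gave 14, and leaving out library 1 or library 2 of the Ppy only cells gave 9 and 10. In these fits the remaining library is assumed to vary like the other classes. The Sst only sums rested on 35 and 23 cells, which limits the differences detectable at this depth.

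Without the 12 cells with Ppy of at least 10%, edgeR called 2 genes against Sst only cells, Ccn1 higher and Dlk1 lower. Cadps, which primes secretory granules for release, stood at 18.6 and 26.5 CPM in cells with both hormones, 4.40 and 0 CPM in Sst only cells, and 204 and 198 CPM in Ppy only cells. Its ratio to Sst only cells was 8.51 (95% counting interval 2.23 to 72.3, from 49 against 2 UMIs), and the edgeR adjusted p was 0.27 (0.013 to 1 over the alternatives). The 12 cells held 41 of the 49 UMIs, at 133 and 130 CPM and in 9 of the 12 cells, whereas 5 of the other 136 cells held 8 UMIs, at 5.20 and 3.36 CPM. Thinned to 4000 UMIs, 25% of the 12 cells and 0.735% of the 136 kept a Cadps UMI, against 44.3% of Ppy only cells. In the non-endocrine cells, Cadps UMIs were seen in 3 of 149.

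Nkx6-1, a homeobox factor best known from beta cells, gave 64.2 and 77.7 CPM in cells with both hormones, above 28.6 and 10.1 CPM in Sst only cells and below 386 and 418 CPM in Ppy only cells. Its log2 fold change against Sst only cells was 1.74 ± 0.34 (edgeR adjusted p = 0.053, and 0.022 with the block, in a range of 0.00023 to 0.92 over the alternatives). Nkx6-1 passed under 9 of 20 alternatives. In the 136 cells with less Ppy it had 42.6 and 52.6 CPM, and in the 12 cells with more it had 248 and 190 CPM. Without the 12 cells its log2 fold change against Sst only cells was 1.15 (edgeR adjusted p = 0.83). Ttr, the thyroid hormone carrier transthyretin, had 421 and 448 CPM against 290 and 248 CPM in Sst only cells (edgeR adjusted p = 0.093). With the library as a block the edgeR adjusted p was 0.022 at a log2 fold change of 0.69, and Ttr passed under 6 of 20 alternatives, in a range of 9.3e-05 to 0.97. In the 136 cells with less Ppy, Ttr was at 296 and 282 CPM, and without the 12 cells its log2 fold change was 0.08 (edgeR adjusted p = 0.97).

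Atf3, a stress-induced transcription factor, had 285 and 230 CPM in cells with both hormones, 114 and 30.2 CPM in Sst only cells, and 681 and 1124 CPM in Ppy only cells. Its log2 fold change against Sst only cells was 1.69 ± 0.31 (edgeR adjusted p = 0.044). DESeq2 gave an adjusted p of 1.0, and without the 12 cells the edgeR adjusted p was 0.83 with a log2 fold change of 1.27. The call was lost under 9 of 20 alternatives, and the adjusted p ranged from 3.6e-16 to 1.0 over the alternatives. It was also lost with equal numbers of cells, after thinning, and with hormones kept in the library sizes. The same held with Sst only cells limited to Ppy below 0.3%, without library 1 of the cells with both hormones, and without library 2 of the Sst only cells. Atf3 UMIs were found in 64 of 148 cells with both hormones and in 94 of 149 non-endocrine cells.

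Ccn1, a secreted matrix protein that responds quickly to stimulation, had 214 and 154 CPM in cells with both hormones against 33.0 and 77.1 CPM in Sst only cells. Its log2 fold change was 1.85 ± 0.28 (edgeR adjusted p = 0.0027). It kept its value without the 12 cells, at 1.87 (edgeR adjusted p = 0.013). The call was lost under 6 of 20 alternatives, and the adjusted p ranged from 1.6e-11 to 0.84. It was lost without library 1 of the Sst only cells (log2 fold change 1.26, edgeR adjusted p = 0.074), with equal numbers of cells (0.63, 0.84), after thinning (1.74, 0.12) and at the 2% threshold (0.41, 0.81). It was also lost with Sst only cells limited to Ppy below 0.3% (1.91, 0.15), and when the 12 cells were left out as well (1.93, 0.34). Ccn1 reached 232 and 266 CPM in Ppy only cells and 759 CPM over all non-endocrine cells.

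Dlk1, an imprinted gene for a membrane protein related to the Notch ligands at chr12:109452823-109463336 (plus strand), was lower in cells with both hormones, at 30.7 and 17.4 CPM against 200.0 and 114 CPM in Sst only cells. It fell by 2.74 ± 0.33 on the log2 scale (edgeR adjusted p = 8.9e-05) and by 2.53 without the 12 cells with the most Ppy (edgeR adjusted p = 6.1e-04, in a range of 1.4e-14 to 0.11 over the alternatives). Dlk1 came from few cells, and is named after its values were seen because 3 cells held 67.2% of its UMIs in Sst only cells. It was detected in 8 of 58 Sst only cells and in 12 of 148 cells with both hormones.

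**Figure D3:**
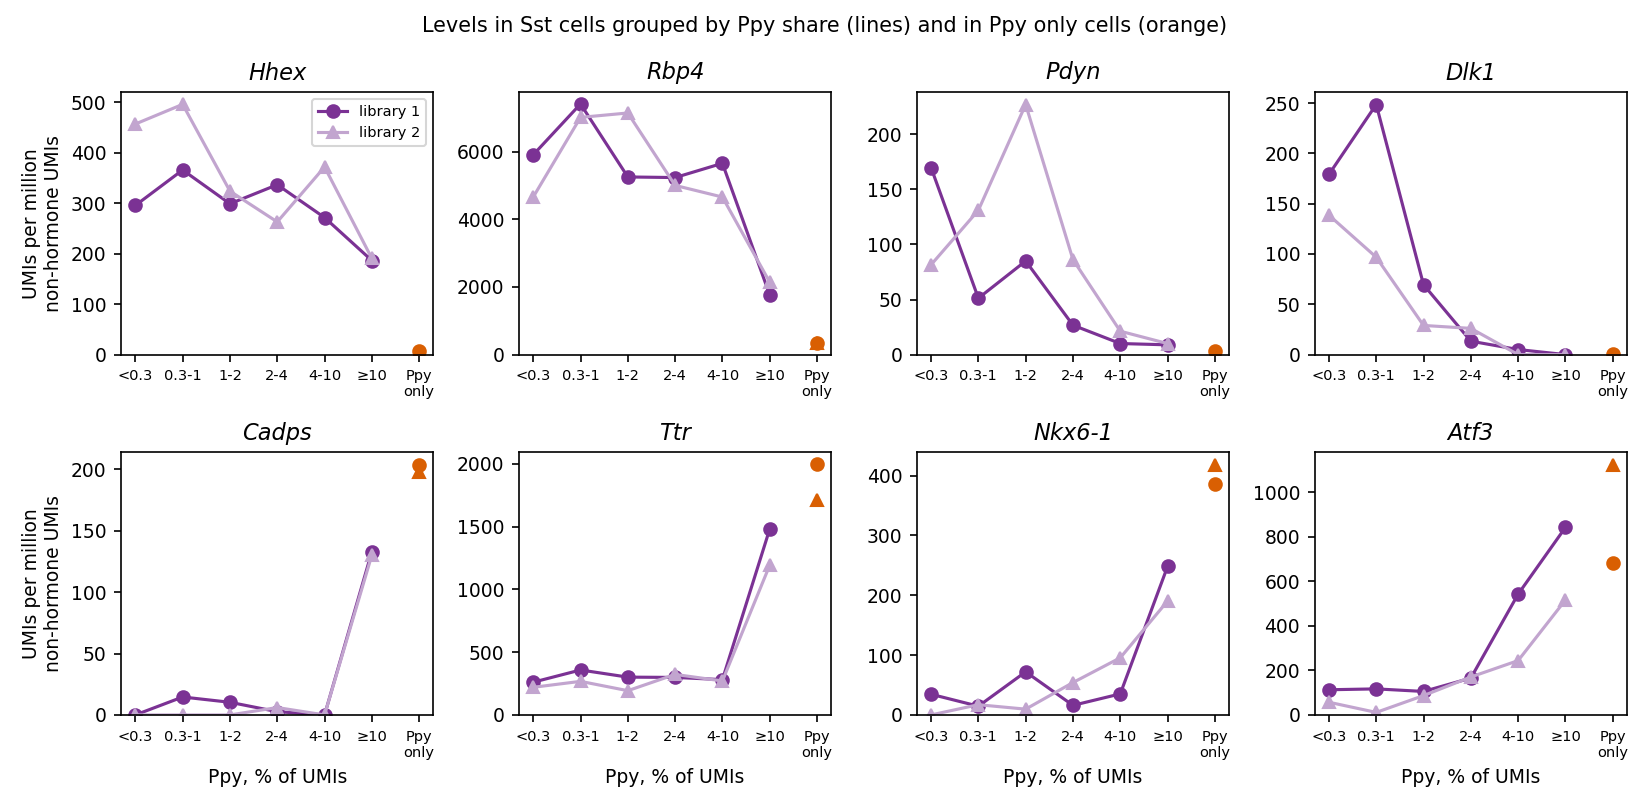
Levels of 8 genes (vertical, CPM without hormone UMIs) in Sst cells grouped by Ppy share (horizontal, % of UMIs), for library 1 (dark circles) and library 2 (light triangles), with Ppy only cells in orange. Cadps and Ttr were low up to a Ppy share of 10%, with Cadps at 0 to 14.6 CPM, and were higher beyond it, while Dlk1 and Pdyn were lower in the groups with more Ppy.

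Along the Ppy share, the genes did not all follow the same course. Hhex was at 340 CPM in Sst cells with Ppy under 0.3%, then at 439, 307, 294 and 320 CPM in the next ranges, at 189 CPM at 10% or more and at 6.62 CPM in Ppy only cells. Dlk1 went from 168 and 163 CPM below 1% Ppy to 55.4, 20.6, 2.58 and 0 CPM above it. Pdyn, which encodes prodynorphin, went from 145 and 96.0 CPM to 134, 60.7, 15.5 and 9.61 CPM. Pdyn did not pass the test against Sst only cells (edgeR adjusted p = 0.69), and the libraries differed in their course.

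To ask where the cells with both hormones lay between the others, genes were chosen in one library and read in the other. A gene was taken when it differed at least 4-fold between Sst only and Ppy only cells and reached 50 CPM in the higher of them, with a pseudocount of 5 CPM. This gave 78 ± 9.90 genes higher in Ppy only cells and 152 ± 17.0 genes higher in Sst only cells (mean ± SD over the 2 readings). All of the following are medians of log2 differences from Sst only cells, given as a description with no test. For the genes of the Ppy side, Ppy only cells stood at 2.58 ± 0.31 and cells with both hormones at 0.58 ± 0.30. For the genes of the Sst side, Ppy only cells stood at −2.77 ± 0.25 and cells with both hormones at −0.19 ± 0.17.

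The 12 cells with the most Ppy stood apart from the rest. They stood at 2.02 ± 0.43 on the Ppy side and −1.31 ± 0.03 on the Sst side, while the 136 cells with Ppy under 10% stood at −0.0040 ± 0.0057 and −0.07 ± 0.10. Some of the medians near 0 on the Ppy side come from genes with no UMI in the Sst only sums, which were 6 of 85 and 17 of 71 genes. Summed over the 85 Ppy-side genes read in library 1, the level was 3246 CPM in Sst only cells, 3332 CPM in the 136 cells, 13160 CPM in the 12 cells and 17350 CPM in Ppy only cells. Over the 70 genes other than Pyy read in library 2, it was 2125, 2251, 12130 and 17320 CPM in the same order. The 12 cells thus lay far above both other sets in each library. The small excess of the 136 cells over Sst only cells was not tested and did not hold in every range of Ppy. Cells with 1% to 2% Ppy had 3099 and 1971 CPM, below Sst only cells in each library. Those with 2% to 4% had 2957 and 2274 CPM, and those with 4% to 10% had 4491 and 2500 CPM.

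**Figure D4:**
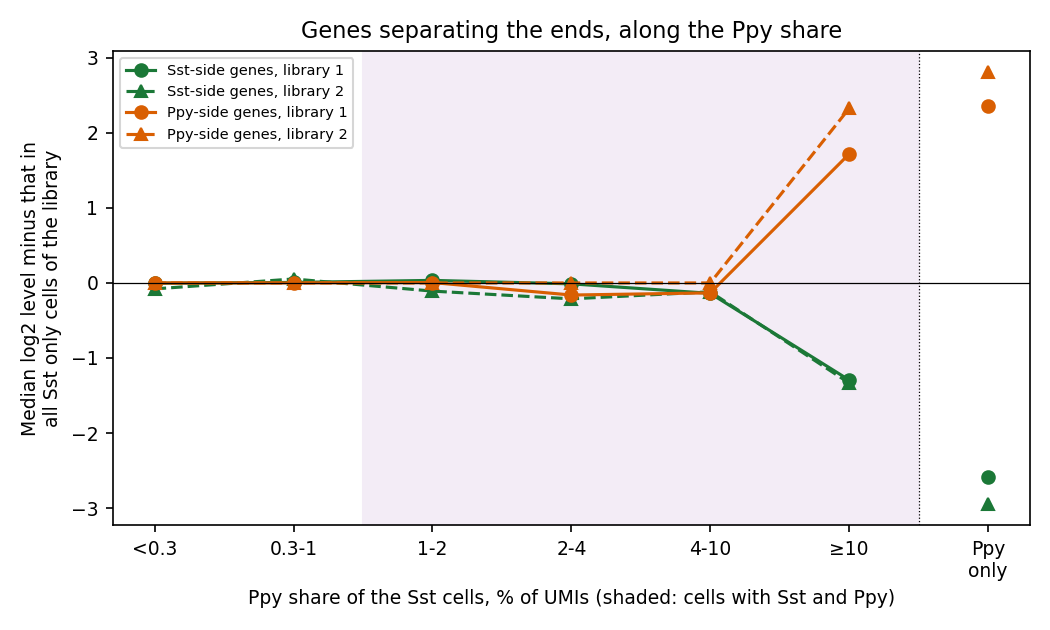
Median log2 level of the genes higher in Sst only cells (green) and of those higher in Ppy only cells (orange), relative to all Sst only cells of the library (vertical), by Ppy share of the Sst cells (horizontal, % of UMIs), with circles for library 1 and triangles for library 2. Both sets stayed near 0 up to 10% Ppy, and the 12 cells beyond it stood at 2.02 and −1.31 on average.

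Genes of both sides were also found under the same barcode among the 12. Whether such a barcode held 1 cell or a pair was not tested. Hhex UMIs were present in 8 of the 12 and Nkx6-1 UMIs in 9, with both in 6. Among the 136 cells, 121 had Hhex UMIs, 23 had Nkx6-1 UMIs and 20 had both. Both genes were found in 5 of 58 Sst only cells, in 8 of 122 Ppy only cells and in 2 of the 149 non-endocrine cells. Hhex and Cadps were found together in 5 of the 12 cells and in 4 of the 136. The 12 cells varied among themselves, since Hhex UMIs ranged from 0 to 12 and Nkx6-1 UMIs from 0 to 18 per cell. Sst share and depth differed as well, so these counts are not corrected for depth.

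Against Ppy only cells, cells with both hormones differed in 1771 of the 11716 genes by edgeR, 975 higher (8.32%) and 796 lower (6.79%). The comparison of Sst only with Ppy only cells used the same Ppy only sums, and gave 947 higher (8.08%) and 757 lower (6.46%). Ppy only cells were deeper, with a median of 29562 ± 1100 UMIs per cell against 14476 ± 1438 (mean of library medians ± SD, n = 2), and their median mitochondrial share was 0.763% ± 0.0093 against 0.465% ± 0.029. The part of mitochondrial RNA in these differences was not tested. DESeq2 called 840 genes, equal numbers of cells gave 703, and thinning to 4000 UMIs gave 522. Leaving out library 1 or library 2 of the cells with both hormones gave 1133 and 1167 calls, and leaving out library 2 of the Ppy only cells gave 1016.

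**Figure D5:**
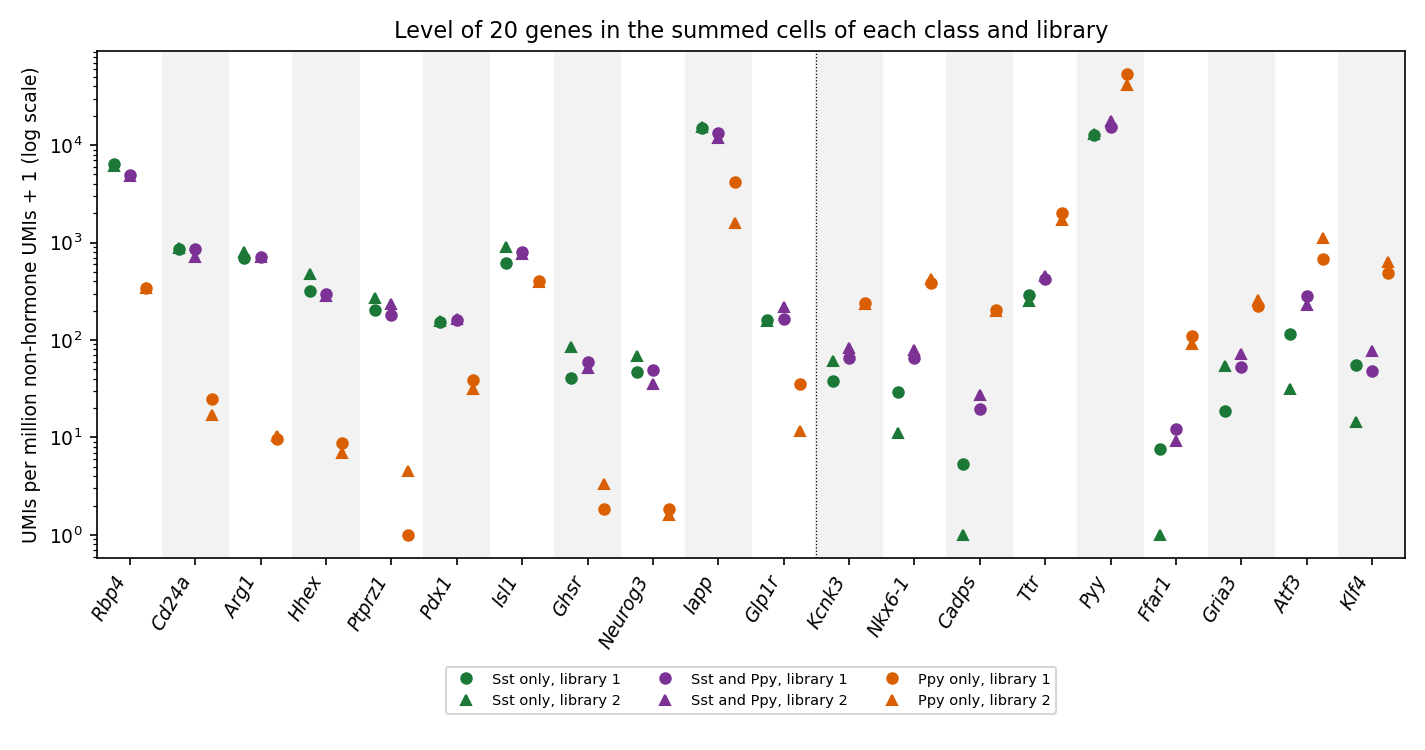
Levels of 20 genes (vertical, CPM without hormone UMIs + 1, log scale) in the summed cells of each class and library, with Sst only in green, both hormones in purple, Ppy only in orange, circles for library 1 and triangles for library 2. Left of the dotted line are genes higher in cells with both hormones than in Ppy only cells, and right of it those lower. For Hhex, Rbp4 and Arg1 the purple points lie near the green ones, and for Nkx6-1 and Cadps they lie between green and orange.

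Over all genes tested, 8.32% were higher and 6.79% lower in cells with both hormones than in Ppy only cells. These shares are the background for each list below. Of 15 tested delta markers, 13 were higher in cells with both hormones than in Ppy only cells and 0 lower, with a median log2 fold change of 3.76 against 0.0080 over all genes tested. Against Sst only cells 0 of the 15 were called, with a median of −0.16. Only 4 of the 11716 genes (0.0341%) were called there, so 0 calls say little about a list of this size. Hhex, at chr19:37434810-37440731 (GRCm38, plus strand), had 295 and 280 CPM against 7.74 and 5.86 CPM in Ppy only cells, a log2 fold change of 5.35 ± 0.25 (edgeR adjusted p = 6.9e-14). Rbp4, a retinol carrier, had 4952 and 4823 CPM against 345 and 345 CPM (3.76 ± 0.11, edgeR adjusted p = 5.7e-18). Ptprz1, a receptor tyrosine phosphatase, had 178 and 235 CPM against 0 and 3.52 CPM. Ghsr, the ghrelin receptor, had 58.6 and 51.2 CPM against 0.859 and 2.35 CPM. Neurog3, the factor that drives endocrine differentiation in the embryo, had 48.4 and 34.7 CPM against 0.859 and 0.586 CPM. Casr and Sstr3 were the 2 tested markers that did not pass, with log2 fold changes of 0.20 ± 0.30 and −0.10 ± 0.14.

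The 12 genes furthest up against Ppy only cells held several others with almost no UMI in that class. Clmp, a cell adhesion molecule, had 74.4 and 66.7 CPM in cells with both hormones and 0 UMIs in Ppy only cells, so it was at least 67.5-fold higher (floor of 3 counts over the class). Cpne7, a calcium-dependent membrane-binding protein, had 74.4 and 41.1 CPM against 0 UMIs and was at least 55.1-fold higher. P2ry1, a purinergic receptor for ADP, had 156 UMIs against 1, a ratio of 206 (95% counting interval 36.5 to 8203). Each of these was also near its Sst only level, with log2 fold changes against those cells of 0.16 ± 0.30, −0.10 ± 0.33 and −0.41 ± 0.27.

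Arg1, the arginase of the urea cycle, had 712 and 707 CPM in cells with both hormones, 701 and 805 CPM in Sst only cells, and 8.59 and 9.38 CPM in Ppy only cells (6.21 ± 0.18, edgeR adjusted p = 5.7e-18). Ly6h, Sim1, Mir100hg, Syt1 and Pdyn were among the other genes of this set, at log2 fold changes of 6.59, 6.15, 5.82, 5.52 and 5.36, together with Ptprz1 (6.48 ± 0.36). Spock3 had 145 UMIs against 3, a ratio of 63.9 (95% counting interval 21.5 to 314). The gene bodies of many genes named in this report overlap other annotated genes, to which some of their reads could belong. These include Cpne7, Clmp, P2ry1, Spock3, Syt1, Neurog3, Iapp, Atf3, Sv2b, St8sia6, Fam184b, Arhgap6, Colgalt2, Galnt13, Cadps, Dscam, Kcnb2, Glp1r, Gcgr, Pdx1 and Nkx2-2.

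The 12 genes furthest down included Sv2b, Kcnh6, St8sia6, Fam222a, Colgalt2, Galnt13, Ugt2b34, Arhgap6, Fam184b, Ffar1 and Ror2, with log2 fold changes from −4.50 to −3.34. Sv2b, a synaptic vesicle protein, had 2.79 and 1.83 CPM in cells with both hormones against 53.3 and 52.2 CPM in Ppy only cells. Ffar1, a receptor for long-chain fatty acids, had 11.2 and 8.23 CPM against 110.0 and 89.1 CPM (fell by 3.40 ± 0.32 on the log2 scale, edgeR adjusted p = 1.2e-08). Ugt2b34, a glucuronosyltransferase, had 23.3 and 29.3 CPM against 322 and 313 CPM. In Sst only cells these genes held between 0 and 10 UMIs each.

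Among 8 tested gamma markers, 5 were lower and 1 was higher in cells with both hormones than in Ppy only cells (median −0.997). Pyy, a peptide hormone of the gut and islet, had 15240 and 17740 CPM against 53890 and 41300 CPM, and 12680 and 13020 CPM in Sst only cells. Etv1, Tm4sf4 and Tspan8 were also lower, and Meis2 was higher. Pyy is the nearest gene of the neuropeptide Y family to Ppy, and its log2 fold change against Sst only cells was 0.36 ± 0.11 (edgeR adjusted p = 0.56). Of 8 alpha markers, which share 1 gene with the gamma list, 5 were lower and 2 (Dpp10 and Slc38a5) were higher (median −1.66). Of 7 beta markers, which share Pdx1 with the delta list, 3 were higher and 3 lower (median −0.09). Glp1r, the receptor for glucagon-like peptide 1, had 164 and 218 CPM against 34.4 and 10.6 CPM. Iapp, the amyloid peptide released with insulin, had 13290 and 11940 CPM against 4190 and 1586 CPM. The only epsilon marker, Ghrl, did not pass the filter on low counts.

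Of 27 tested islet transcription factors, 11 were higher and 6 lower than in Ppy only cells (median 0.24). Besides Hhex and Neurog3, those higher included Pdx1, a pancreatic homeobox factor, at 161 and 163 CPM against 37.8 and 30.5 CPM (2.20 ± 0.19, edgeR adjusted p = 3.5e-09), and Rfx6 at 238 and 233 CPM against 56.7 and 50.4 CPM. Those lower included Nkx6-1 and Nkx2-2, the last at 86.5 and 92.3 CPM against 182 and 173 CPM. Against Sst only cells none of the 27 passed, where 0.0341% of all genes tested did.

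Of 4 tested peptides of the islet and the neuropeptide Y family, Iapp and Pdyn were higher and Pyy lower, while Edn3, an endothelin, did not pass (edgeR adjusted p = 0.054). Of 20 tested receptors for hormones and transmitters, 8 were higher and 6 lower (median 0.17). Those higher included Ghsr, Glp1r, Crhr2 (a receptor for urocortins), Gcgr (the glucagon receptor) and Adra2a (an adrenergic receptor), the last at 26.0 and 45.7 CPM against 1.72 and 1.76 CPM. Those lower included Ffar1 and Vipr1, a receptor for vasoactive intestinal peptide, at 16.7 and 19.2 CPM against 92.0 and 80.3 CPM. Among receptors for the peptides that define the cells, Sstr1 was higher than in Ppy only cells (log2 fold change 5.995, edgeR adjusted p = 0.0045). Its call did not hold under 3 of 14 alternatives. Sstr3 stood at 176 and 197 CPM against 184 and 198 CPM in Ppy only cells. Sstr4, Sstr5 and the neuropeptide Y family receptors Npy1r, Npy2r, Npy4r and Npy5r had 0 UMIs in the 148 cells and were thus not detectable at this depth.

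Of 29 ion channel genes, 9 were higher and 6 lower (median 0.16). Kcnb2, a voltage-gated potassium channel, had 80.9 and 73.1 CPM against 3.44 and 2.35 CPM (4.66 ± 0.40, edgeR adjusted p = 2.7e-09). Gria3, a glutamate receptor subunit, had 52.1 and 70.4 CPM against 223 and 259 CPM. Of 25 genes for prohormone processing and granules, 3 were higher and 8 lower (median −0.09). Over all genes tested, 8.32% were higher and 6.79% lower. Chgb, a granin of the secretory granule, had 9815 and 9100 CPM against 3227 and 3009 CPM, whereas Cadps, which primes granules for release, had 18.6 and 26.5 CPM against 204 and 198 CPM. Of 21 adhesion and axon genes, 11 were higher and 3 lower (median 0.64), with Dscam at 126 and 141 CPM against 6.88 and 4.10 CPM.

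The immediate early genes, which respond within minutes to stimulation or stress, were lower in both Sst classes than in Ppy only cells. In Sst only cells, 13 of 16 tested were lower than in Ppy only cells and 0 higher, with a median of −1.26. Of the same 16, 15 were lower in cells with both hormones than in Ppy only cells and 0 higher, with a median of −1.08. Fos had 1998 and 1632 CPM against 4138 and 3917 CPM, and Klf4 47.4 and 76.8 CPM against 486 and 632 CPM. Ier3 was the gene that did not pass. Of 17 tested genes for endoplasmic reticulum stress and folding, which share Atf3 with that list, 5 were lower and 2 higher (median −0.06). Of 4 cell cycle genes 1 was lower (median −0.25). Over all genes tested, 6.79% were lower and 8.32% higher.

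Markers of non-endocrine cells were read in the same sums. The 10 endothelial markers summed to 375 CPM in library 1 and 63.1 CPM in library 2 of the cells with both hormones, to 672 and 57.0 CPM in Sst only cells, and to 53.3 and 64.5 CPM in Ppy only cells. Of 7 tested, 3 were higher than in Ppy only cells (Flt1, Kdr and Plvap), with Flt1 at 139 CPM in library 1 and 5.49 CPM in library 2. Nrp1, counted above among the adhesion genes and also known from endothelium, followed the same split at 62.3 and 6.40 CPM. Of 3 tested leukocyte markers 2 were lower, with sums of 96.7 and 13.7 CPM against 84.2 and 315 CPM. The 7 stellate and mural markers summed to 19.5 and 11.9 CPM against 66.2 and 62.2 CPM, and the 1 tested was lower. Of 3 ductal markers 1 (Sox9) was higher and 2 lower, of acinar markers the 1 tested (Cela1) was higher, and of 2 Schwann markers 1 was higher. The ductal markers summed to 337 and 356 CPM against 597 and 537 CPM in Ppy only cells, the acinar markers to 273 and 233 CPM against 20.6 and 21.1 CPM, and the Schwann markers to 89.3 and 99.7 CPM against 47.3 and 39.3 CPM. Cd3e, Dcn, Krt19, Cel, S100b and Sox10 had 0 UMIs in the 148 cells. Against Sst only cells none of these markers passed, where 0.0341% of all genes tested did. The part of other cell types in the results was not tested. Of the 148 cells, 4 carried other-type markers at 0.2% of UMIs or more, as did 4 of 58 Sst only cells and 4 of 122 Ppy only cells. With such cells removed from all 3 classes, there were 10 calls against Sst only cells.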

How the data were processed

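The 2 technical-replicate libraries of 1 islet preparation were read from the counts the authors deposited, which are UMI counts per gene and cell. The authors made them with Cytonaut 1.2 (pre-processing 6.7) from reads aligned to exons of GRCm38 with Ensembl release 99, collapsing UMIs. Whether strand was used in counting is not given in the sources used here. The cells, gene lists and comparisons were chosen with earlier results of these data known. Non-endocrine cells had summed markers of another type of at least 0.2% of UMIs, and Chga, Chgb, Scg2 and Pcsk2 together below 0.2%.

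Counts were summed per class and library (6 sums) without the 5 hormone genes, filtered with filterByExpr, TMM-normalized and tested with edgeR 4.0.16 (quasi-likelihood, Benjamini-Hochberg, 0.05; R 4.3.3). The scripts were tested on simulated data. DESeq2 1.42.0 was an alternative. Sums with the same number come from the same library and so are paired. The correlations of their deviations from the class means were 0.104, 0.00406 and −0.0261. Named genes were the 12 furthest up and down among called genes with at least 50 CPM in the higher class, 1 direction in both libraries, and at most 50% of the UMIs in 3 cells, plus members of the gene lists. Doublets were scored with Scrublet (scanpy 1.11.5) and kept. Coordinates and overlaps come from a GRCm38 gene annotation. Some genes of the named set and of the lists are not reported here.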

Additional observations from a re-analysis of the deposited data

How the results depend on the processing

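The number of genes called between cells with both hormones and Sst only cells moved most. It was 4 in the reported fit, and 11 with the replicate block that pairs the libraries, 43 with no filter beyond 1 count, 7 at a mean of at least 20 CPM, 10 without Scrublet calls, 0 after thinning to 4000 UMIs (edgeR, with 232 genes at an unadjusted p under 0.05), 8 at a hormone threshold of 2%, and 10 without cells carrying markers of other types. Leaving out single libraries gave 5 to 19. In alternatives chosen after seeing the data, it was 2 without the cells with Ppy of at least 10%, 2 with Sst only cells limited to Ppy below 0.3%, and 1 with both. Against Ppy only cells, 1771 genes became 840 with DESeq2, 703 with equal numbers of cells and 522 after thinning. Leaving out single libraries gave 1016 to 2238. Between Sst only and Ppy only cells, 1704 genes became 937, 879 and 473 in the same order, and 1076 to 1639. The block changed no other count by over 1.5 times.

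The share of cells with both hormones, 9.98%, was 11.2% at a threshold of 0.5%, 6.74% at 2%, 0.878% at 5%, 11.9% with no limit on insulin and Gcg, and 11.7% with Ppy of at least 0.3%, the last chosen after seeing the data. The median difference of Sst-side genes was −0.95 in members with more Ppy than Sst. That of Ppy-side genes was 0.0 in members with more Sst, 1.78 in those with more Ppy, −0.0040 without Ppy of at least 10% and 0.26 with the fixed marker list. Genes per cell were 4660, 4471 and 5803 without thinning and 2344, 2315 and 2275 without hormone genes, for both hormones, Sst only and Ppy only. Nrp1 turned from higher against Ppy only cells to −0.39 at the 2% threshold. The causes were not tested. Of 133 genes followed against Ppy only cells, 85 kept direction and call under every alternative run. With 2 technical libraries of 1 preparation, differences between animals were not measured, and 23 to 35 cells limit the Sst only sums.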
